A study of Mus musculus with 4 samples.

Results

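A set of 10 little-studied genes was followed in the hematopoietic stem and progenitor cells of mice that had lost Nup358. The genes were Afp, B930036N10Rik, Slc22a3, Pdzph1, 2410004B18Rik, Fam84b, Slc45a3, S100a4, Stfa1 and 4930519L02Rik, which are 10 of the 27998 genes counted. They had been picked by symbol because their unique molecular identifiers (UMIs, each standing for 1 captured transcript molecule) summed over all cells were higher in the knockout libraries than in the controls. That same difference is therefore given below as a description, with a standard error and no test. Where each gene was found among the progenitor types was not itself a criterion of the choice, and that was tested. A choice on summed UMIs nevertheless favours genes of cell groups that are larger in the knockouts. Counts of members called higher in such groups are therefore not independent of it.

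Single-cell RNA-seq had been run on LSK cells, which are bone marrow cells negative for lineage markers (Lin-) and positive for Sca1 and cKit. Both groups carried Nup358 fl/fl alleles. The controls, called wild-type in the deposited labels, carried nothing else, and the knockouts had in addition R26-CreERT2, a Cre recombinase that is present in every tissue and is switched on by tamoxifen. By the study's methods the mice were 9 to 12 weeks old, received tamoxifen on 3 consecutive days, and were analysed 5 days after its first dose. Each of the 4 libraries, 2 per genotype, was made from the pooled marrow of 3 mice, so p-values measure the spread between libraries and not between mice. Since the controls lacked Cre, effects of Cre itself and of the loss of Nup358 cannot be told apart.

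Nup358, encoded by Ranbp2, sits on the cytoplasmic filaments of the nuclear pore and takes part in nuclear transport and in SUMO modification. LSK cells hold the blood stem cells and the multipotent progenitors, which begin to express genes of the megakaryocyte, erythroid, neutrophil or lymphoid lineage before they commit to one. The 10 genes share no pathway. Slc22a3 encodes organic cation transporter 3, a carrier of monoamines such as histamine, and Slc45a3 encodes prostein, a transporter of another solute carrier family. Afp encodes alpha-fetoprotein, the serum protein of the yolk sac and fetal liver, S100a4 a small calcium-binding protein, and Stfa1 a stefin, an inhibitor of cathepsin-type cysteine proteases. Pdzph1 encodes a protein with PDZ and pleckstrin homology domains, and Fam84b a protein with a domain like that of lecithin retinol acyltransferase. B930036N10Rik is annotated as an antisense RNA, 4930519L02Rik as a long intergenic non-coding RNA and 2410004B18Rik as a protein-coding gene.

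The libraries shared cell barcodes, and 17622 of the 25242 deposited barcodes (69.8%) had a sequence found in more than 1 library. A barcode was called copied when another library held the same sequence with at least 3 times as many UMIs, which marked 14.8% of the barcodes of control replicate 1, 81.8% of control replicate 2, 65.3% of knockout replicate 1 and 18.8% of knockout replicate 2. Copied barcodes were left out, and the differences with them included are given beside the main ones. The 14041 cells kept held between 18846887 and 59033602 UMIs per library, and the median cell of control replicate 1 held 6251 UMIs against 13176 to 17707 in the other libraries. Neutrophil genes (all 11 listed markers were seen in every library) summed to 10390 and 6554 UMIs per 1000000 UMIs of the library (CPM) in the controls and to 1784 and 1130 CPM in the knockouts, and mature erythroid genes to 75.0 and 1045 CPM against 2.84 and 4.44 CPM. B cell genes summed to 47.3 and 51.0 CPM in the controls and 139.6 and 385.7 CPM in the knockouts. Plasma cell genes summed to 123 and 278 CPM against 654 and 440 CPM, monocyte and dendritic genes to 1312 and 1025 CPM against 726 and 649 CPM, and macrophage genes to 26.3 and 19.8 CPM against 19.6 and 11.2 CPM. Plasmacytoid dendritic genes summed to 367 and 383 CPM against 547 and 440 CPM, and the class named from them made up at most 0.0511% of the cells of a control library and at least 1.96% of those of a knockout library. The lists of lymphoid multipotent and of endothelial and stromal genes overlapped between the genotypes. The part of these differences in the members' levels was not tested beyond the values within cell classes given below. Ranbp2 itself stood at 127 and 101 CPM in the controls and 124 and 126 CPM in the knockouts. The kit reads the 3′ end of a transcript, whereas Cre removes exon 2, so these counts do not report on that exon and check no label. Why the level of Ranbp2 did not differ was not tested.

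Summed over all LSK cells, 9 of the 10 genes were higher in each knockout library than in either control, a pattern that 29.9% of the 13779 genes tested also showed. Since the genes were chosen on these sums, the count describes the choice. Afp stood at 8.91 and 9.07 CPM in the control libraries and at 21.2 and 31.3 CPM in the knockouts, a log2 difference of 1.51 ± 0.22 (SE). The non-coding RNA 4930519L02Rik stood at 14.6 and 13.5 CPM in the controls and at 40.2 and 45.1 CPM in the knockouts, a log2 difference of 1.56 ± 0.15. Its lowest knockout value was 2.76 times its highest control value, the widest such gap among the members with at least 200 UMIs. Fam84b stood at 7.67 and 8.81 CPM against 22.2 and 18.9 CPM (log2 difference 1.28 ± 0.17). Slc22a3 stood at 27.4 and 23.1 CPM against 50.2 and 50.6 CPM (0.96 ± 0.14). In each of these 4 genes the gap between the genotypes was wider than the spread within either.

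**Figure D1:**
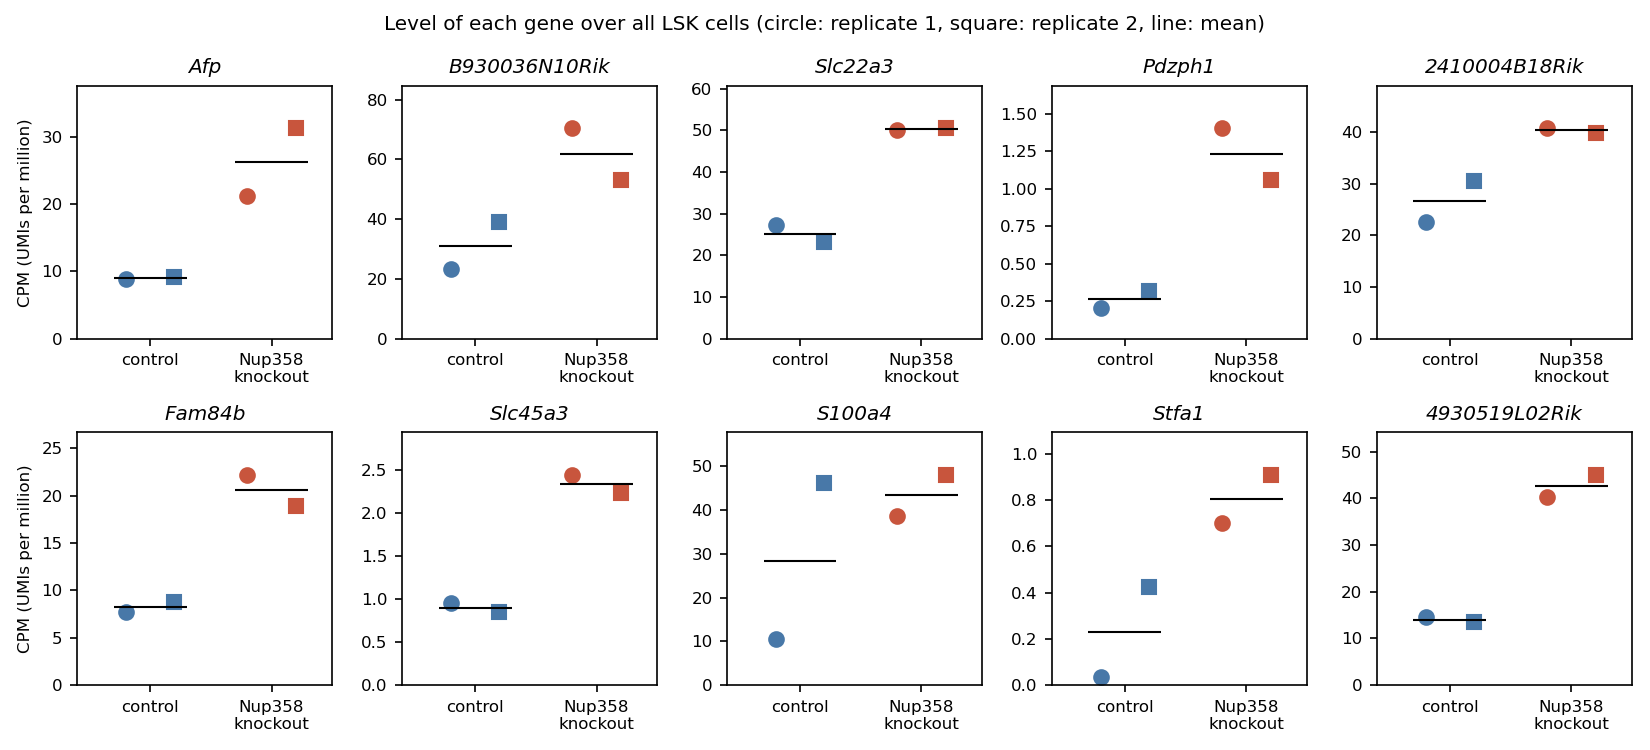
Level in CPM (linear axis from 0, a separate scale for each gene) of each of the 10 genes over all LSK cells, with 1 point for each of the 2 control (blue) and 2 knockout (red) libraries and a line at their mean. In 9 genes both knockout points lie above both control points, and in S100a4 control replicate 2, at 46.2 CPM, lies above knockout replicate 1, at 38.7 CPM.

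For B930036N10Rik and 2410004B18Rik the control libraries themselves differed. B930036N10Rik stood at 23.4 and 38.9 CPM in the controls and at 70.4 and 53.2 CPM in the knockouts (log2 difference 0.95 ± 0.27). 2410004B18Rik stood at 22.7 and 30.6 CPM against 40.8 and 39.9 CPM (0.56 ± 0.19). In both genes the lowest knockout library was less than 1.5 times the highest control, at 1.37 times for B930036N10Rik and 1.31 times for 2410004B18Rik.

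S100a4 did not meet the description under which it was picked. It stood at 10.5 CPM in control replicate 1 and at 46.2 CPM in control replicate 2, against 38.7 and 48.1 CPM in the knockouts. The log2 difference of 0.59 was equal to its standard error of 0.59, and the groups overlapped. Without control replicate 1 the difference became -0.16, and without control replicate 2 it became 2.03, so the direction rested on which control was used.

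The remaining genes were sparse. Pdzph1 had 12 and 6 UMIs in the controls and 46 and 57 in the knockouts, or 0.203 and 0.318 CPM against 1.41 and 1.06 CPM (log2 difference 2.29 ± 0.44). Slc45a3 had 56 and 16 UMIs in the controls and 80 and 120 in the knockouts, or 0.949 and 0.849 CPM against 2.44 and 2.23 CPM (1.32 ± 0.29). Stfa1 had 2 and 8 UMIs in the controls and 23 and 49 in the knockouts, and these came from 1, 2, 2 and 4 cells. With copied barcodes included, the log2 differences were 1.19 for Afp, 0.86 for B930036N10Rik, 0.80 for Slc22a3, 2.04 for Pdzph1, 0.53 for 2410004B18Rik, 1.10 for Fam84b, 1.07 for Slc45a3, 0.70 for S100a4, 2.52 for Stfa1 and 1.30 for 4930519L02Rik, all in the direction seen without them.

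To locate the genes among progenitor types, cells were clustered with the 10 genes and their relatives left out of the clustering genes, and clusters were named from marker lists. The 10 leading genes of stem-like cells, with Ltb first, included Mecom and Pdzk1ip1, and those of megakaryocyte-like cells included Pf4 and Itga2b. Those of erythroid-like cells, with the haemoglobin gene Hbb-bs first, included Car1 and Klf1 but also Jchain. In clusters 12 and 14 of the neutrophil-like class they included Elane and Ms4a3. Groups that did not meet the naming rule, given with the processing, keep a number and are described by their leading genes. Some of them still matched a list. At 2-fold over the median of the other clusters, cluster 17 had 4 of 4 plasma cell markers and cluster 9 had 5 of 5 macrophage markers. Cluster 1 had 10 of 11 neutrophil markers. Each class was compared with the other cells of the same library by edgeR's quasi-likelihood test with the library as a block, with Benjamini-Hochberg adjustment over all genes tested for that class. Since the classes were cut from the same cells, these p-values apply to genes that did not take part in the clustering but may follow genes that did. For each gene, edgeR also draws on the spread of all genes. The p-values of groups tested in only 2 or 3 libraries rest mostly on that shared spread.

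Slc22a3 and Slc45a3 were enriched both in megakaryocyte-like and in erythroid-like cells, and Pdzph1 in erythroid-like cells. These 2 classes together held most UMIs of Slc45a3 and Pdzph1 but not of Slc22a3, of which megakaryocyte-like cells held 25.1%, cluster 8 (led by Ms4a3 and Elane) 16.9% and erythroid-like cells 5.64%. In erythroid-like cells 4 of the 9 members tested were higher than in the other cells and 3 were lower, against 11.3% and 15.1% of all genes tested. In megakaryocyte-like cells 3 were higher and 3 lower, against 12.4% and 13.8%. Slc22a3 in megakaryocyte-like cells stood at 102.1 and 95.3 CPM in the controls and at 140.2 and 126.5 CPM in the knockouts, and in erythroid-like cells at 59.3 and 95.2 CPM against 134 and 106 CPM. Set against the other cells of each library it was higher by 1.88 ± 0.10 on the log2 scale in megakaryocyte-like cells (edgeR adjusted p = 1.04e-08) and by 1.44 ± 0.15 in erythroid-like cells (adjusted p = 1.27e-06), in 4 of 4 libraries each. The values of these 2 classes overlapped, and the next in order among the groups present in every library, cluster 8, reached from 29.5 to 63.4 CPM. By its mean over the 4 libraries, Slc22a3 was lowest among groups present in every library in clusters 4 and 7. Both were led by the early lymphoid gene Dntt, with log2 differences of -1.47 ± 0.19 and -1.99 ± 0.16 (edgeR adjusted p = 3.38e-05 and 1.90e-05). In the control libraries neutrophil-like cells were lower still, at 6.22 and 4.91 CPM. Over the 4 libraries that class differed from the other cells by -1.28 ± 0.35 (edgeR adjusted p = 0.0234). In cluster 4 there were 2 of 7 members that were lower and in cluster 7 there were 4 of 8, against 9.66% and 11.8% of all genes. Slc22a3 was also lower in stem-like cells (-0.80 ± 0.18, edgeR adjusted p = 0.00393), although in 3 of 4 libraries.

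After each cell with at least 1000 UMIs was thinned to 1000 UMIs, 10.3% of megakaryocyte-like and 8.43% of erythroid-like cells held a UMI of Slc22a3, against 0.311% of B cell-like cells. Shallower cells were left out of the thinning, which kept 322 of the 401 B cell-like cells. Without thinning, over all cells of each class, the shares were 58.0%, 56.2% and 2.74%, at median depths of 8244, 12834 and 2172 UMIs per cell. The level of free RNA in the droplets was not estimated.

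Slc45a3 was higher in erythroid-like cells than in the others by 4.98 ± 0.35 on the log2 scale (adjusted p = 1.51e-08) and in megakaryocyte-like cells by 1.64 ± 0.29 (adjusted p = 0.000726), in 4 of 4 libraries each. Erythroid-like cells were 1.77% of all cells and held 42.7% of its 272 UMIs. Basophil and mast-like cells, led by Prss34 and Mcpt8, were 0.285% of all cells and held 17.3%. This class had 40 cells, 29 of them in knockout replicate 2, and was too small in the other libraries to test. In those 29 cells Slc45a3 stood at 45.4 CPM, against 36.1 CPM in the erythroid-like cells of knockout replicate 2. In the same 29 cells Slc22a3 stood at 70.0 CPM and Pdzph1 at 9.46 CPM, the latter from 5 UMIs. Over all cells, the basophil and mast markers summed to 50.4 and 35.0 CPM in the controls and to 93.4 and 182 CPM in the knockouts, and their part in the genotype difference of Slc45a3 was not tested. The erythroid markers summed to 227 and 445 CPM against 259 and 367 CPM, and the megakaryocyte markers to 122 and 97.7 CPM against 93.8 and 135 CPM. Pdzph1 was still more restricted, with 67.8% of its 121 UMIs in erythroid-like cells and 16.5% in megakaryocyte-like cells. It was higher in erythroid-like cells by 6.29 ± 0.72 (adjusted p = 4.28e-06), and in megakaryocyte-like cells it differed by 1.07 ± 0.53 (adjusted p = 0.161). In the 401 B cell-like cells neither gene had a UMI.

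The promoters of Slc45a3 and Pdzph1 are shown because these genes had the largest erythroid-like enrichment, and the motif bound by GATA factors of the erythroid and megakaryocyte lineages was searched there. Promoter windows from 250 bases before to 50 bases after a transcript start, from RefSeq on GRCm38.p6, were found for 8 of the 10 genes and gave 9 windows. The letters AGATAA or TGATAA, on either strand, occurred in 3 of the 9 windows, against 18.6% of all 32851 windows. They occurred in the window of Pdzph1, in 1 of the 2 windows of Slc45a3 and in that of Stfa1. A match is a run of letters and does not show a bound site. Capitals mark the matches in the window of Pdzph1, on the minus strand at chr17:58991326-58991625, and in the second window of Slc45a3, on the plus strand at chr1:131970359-131970658.
Pdzph1: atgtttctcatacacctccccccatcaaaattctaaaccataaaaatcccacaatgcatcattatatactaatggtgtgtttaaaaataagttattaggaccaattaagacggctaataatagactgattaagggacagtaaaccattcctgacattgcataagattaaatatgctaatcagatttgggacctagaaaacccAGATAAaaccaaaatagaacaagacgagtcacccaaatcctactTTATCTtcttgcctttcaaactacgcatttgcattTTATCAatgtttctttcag
Slc45a3: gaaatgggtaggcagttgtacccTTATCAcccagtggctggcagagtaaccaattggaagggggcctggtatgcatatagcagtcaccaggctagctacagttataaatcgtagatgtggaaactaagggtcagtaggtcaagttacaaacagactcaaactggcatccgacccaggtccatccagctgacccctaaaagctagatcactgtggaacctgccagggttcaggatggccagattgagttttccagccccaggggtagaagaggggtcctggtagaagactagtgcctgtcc
The Pdzph1 window holds 3 matches, and that of Slc45a3 holds 1 match.

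4930519L02Rik was spread over more classes. It was higher in megakaryocyte-like cells by 0.83 ± 0.08 (adjusted p = 2.66e-06) and in cluster 8 by 0.50 ± 0.08 (adjusted p = 0.00103), where 2 of 8 members tested were higher against 4.29% of all genes. It was lower in stem-like cells (-0.97 ± 0.18, adjusted p = 0.00139) and, among the groups present in every library, lowest in cluster 4, at 3.47 and 3.03 CPM in the controls and 9.17 and 17.1 CPM in the knockouts. Its highest level was in the basophil and mast-like cells of knockout replicate 2, where 29 cells held 87 UMIs, or 164.6 CPM.

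**Figure D2:**
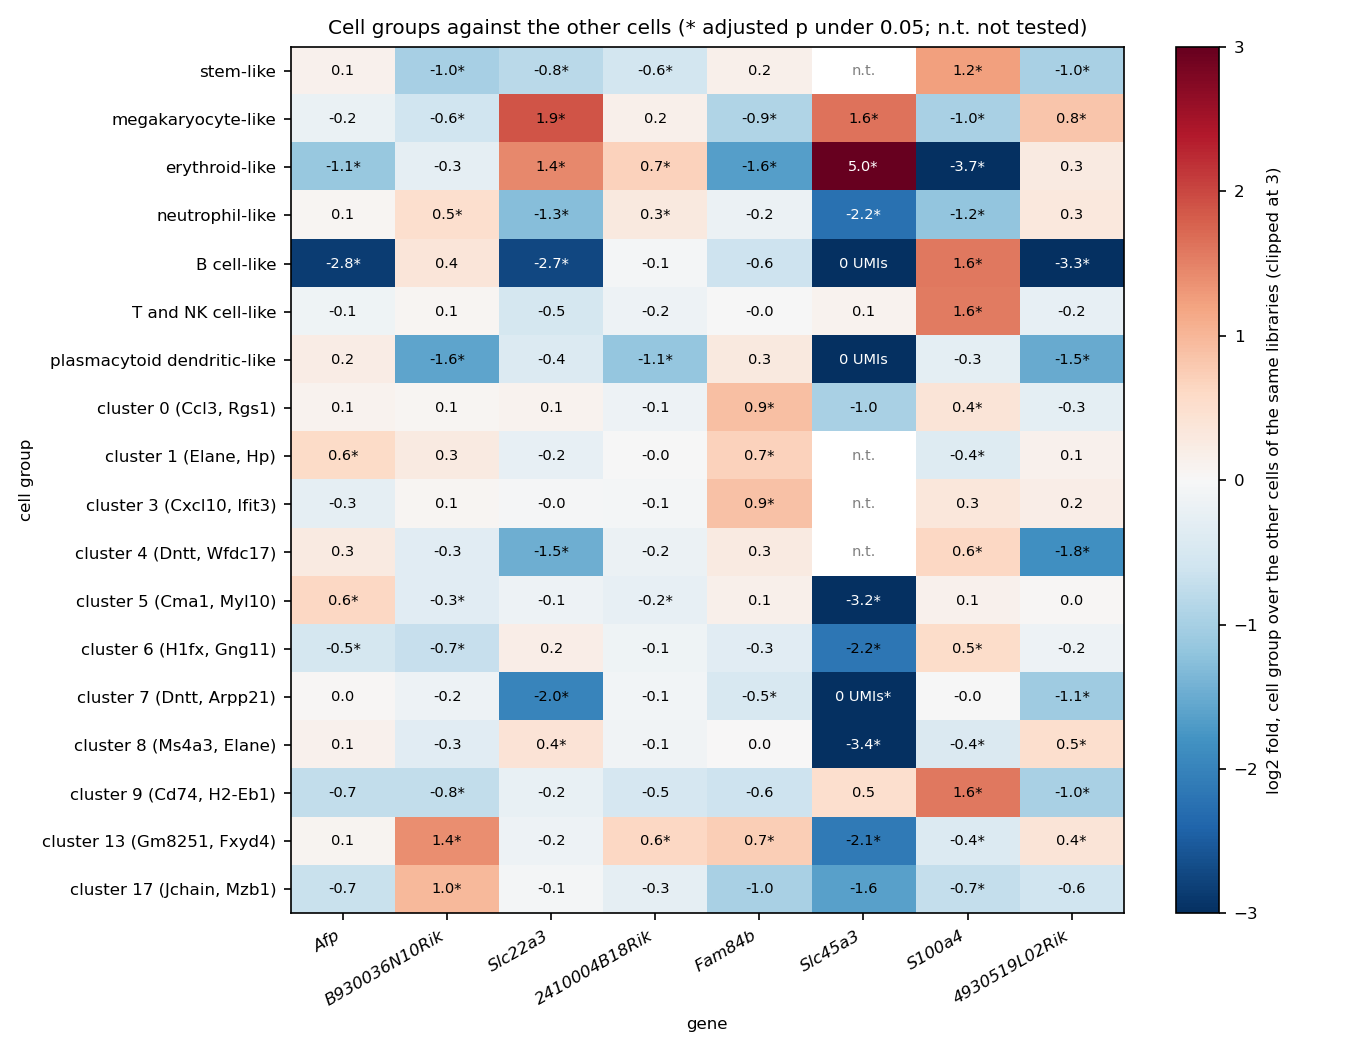
Heat map of the log2 difference between each cell group (rows) and the other cells of the same libraries, for 8 genes (columns; the sparse Pdzph1 and Stfa1 are not drawn), with red for higher and blue for lower, colours clipped at 3, and an asterisk where the edgeR adjusted p was under 0.05. Among the groups drawn, Slc45a3 is highest in erythroid-like cells, at 4.98, while S100a4 is lowest there, at -3.74. Basophil and mast-like cells were too few to test and are not drawn.

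Unlike Slc22a3, S100a4 was higher in stem-like cells and lower in megakaryocyte-like and erythroid-like cells than in the other cells. In stem-like cells it stood at 33.0 and 107.5 CPM in the controls and at 91.4 and 106 CPM in the knockouts, and against the other cells it was higher by 1.23 ± 0.11 (adjusted p = 1.38e-05), the only member higher there, against 22.2% of all genes. The other members called in stem-like cells were 4 that were lower, against 24.6% of all genes. S100a4 was lower in erythroid-like cells (-3.74 ± 0.34, adjusted p = 3.48e-07), where the 4 libraries held 3, 0, 3 and 3 UMIs. It was also lower in megakaryocyte-like cells (-0.98 ± 0.12, adjusted p = 3.03e-05) and in neutrophil-like cells (-1.18 ± 0.11, adjusted p = 0.000629). In the 2 knockout libraries, the only ones with at least 20 B cell-like cells, it was higher in that class by 1.58 ± 0.24 (edgeR adjusted p = 1.01e-09), as 1 of 10 members tested, against 6.82% of all genes. The class joined cluster 16, led by Igll1 and Vpreb3, and cluster 19, led by Cd79a and Ly6d. In the knockouts S100a4 stood at 262 and 108 CPM in cluster 16. In cluster 19 it stood at 15.6 and 34.6 CPM, below the mean of 41.5 CPM in the cells outside the class. In knockout replicate 1, 61 of its 64 UMIs in the class came from the 10 cells of cluster 16. In cluster 9, led by the antigen presentation genes Cd74 and H2-Eb1 and tested in 3 libraries, S100a4 was higher by 1.59 ± 0.19 (edgeR adjusted p = 3.14e-15), as 1 of 9 members, against 6.78% of all genes. Its 109 UMIs there lay in 11.7% of the 154 cells of the cluster, and its level reached from 32.9 to 147 CPM in the 3 libraries. Of the 18 groups tested, S100a4 was called higher in 7 and lower in 7. The higher ones also held T and NK cell-like cells, tested in the 2 knockout libraries (1.56 ± 0.30, edgeR adjusted p = 1.21e-05). The others were clusters 0 (0.39 ± 0.10), 4 (0.62 ± 0.10) and 6 (0.54 ± 0.09). In every one of the 12 groups present in all libraries, control replicate 1 had less S100a4 than control replicate 2, except erythroid-like cells, where it had 3 UMIs against 0.

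B930036N10Rik and 2410004B18Rik were both higher in a group that was itself uneven between genotypes. Over its pooled cells, cluster 13 was led by haemoglobin genes and then by Gm8251 and Fxyd4. The mature erythroid list, which holds Hba-a1, Hba-a2 and Hbb-bs, summed to only 2.84 and 4.44 CPM over the whole knockout libraries. The haemoglobin lead therefore need not describe the knockout cells of the cluster. Cluster 13 made up 1.21% and 4.33% of the control cells and 17.8% and 12.7% of the knockout cells. Of the 8 members tested there 4 were higher, against 13.8% of all genes, a count not independent of the choice. B930036N10Rik was higher by 1.39 ± 0.14 (adjusted p = 2.03e-08), and 2410004B18Rik by 0.61 ± 0.11 (adjusted p = 0.000358), although the latter in 3 of 4 libraries. B930036N10Rik was lower in stem-like cells (-0.99 ± 0.13, adjusted p = 0.000196) and in megakaryocyte-like cells (-0.59 ± 0.09, adjusted p = 0.000171). 2410004B18Rik was also lower in stem-like cells (-0.56 ± 0.12, adjusted p = 0.00293). In neutrophil-like cells 2 of the 8 members tested were higher and 3 lower, against 19.9% and 21.2% of all genes. There B930036N10Rik was higher by 0.50 ± 0.10 (adjusted p = 0.00871) and lost the call without control replicate 1, at 0.45. In erythroid-like cells 2410004B18Rik was higher by 0.69 ± 0.18 (edgeR adjusted p = 0.00964), although in 3 of 4 libraries. In the controls it stood there at 24.3 and 22.4 CPM, against 22.7 and 30.6 CPM over all LSK cells. In the knockouts it stood there at 81.4 and 75.9 CPM, against 40.8 and 39.9 CPM. The call was lost without either knockout library, at 0.53 without knockout replicate 1 and 0.49 without knockout replicate 2.

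Afp and Fam84b were called higher than in the other cells in numbered clusters and in no named class that was tested. Plasmacytoid dendritic-like cells could be tested in the 2 knockout libraries only. There the mean level was 34.7 CPM for Afp (log2 difference 0.22 ± 0.36, edgeR adjusted p = 0.767) and 28.9 CPM for Fam84b (0.29 ± 0.42, adjusted p = 0.738). In the same 2 libraries cluster 1, led by Elane and Hp, stood at 39.7 and 49.5 CPM for Afp and at 54.1 and 31.7 CPM for Fam84b. Both genes were lower in erythroid-like cells, at -1.14 ± 0.27 for Afp (edgeR adjusted p = 0.00493) and -1.65 ± 0.33 for Fam84b (adjusted p = 0.00120). Fam84b was also lower in megakaryocyte-like cells (-0.91 ± 0.15, adjusted p = 0.000474). It was higher in cluster 0, led by Ccl3 and Rgs1, by 0.91 ± 0.12 (adjusted p = 0.000127), and in cluster 3, led by the interferon response genes Cxcl10 and Ifit3, by 0.89 ± 0.20 (adjusted p = 0.00218). In cluster 0 there were 2 of 8 members tested that were higher, and in cluster 3 there was 1 of 7, against 12.7% and 3.09% of all genes. Afp was higher in cluster 5, led by Cma1 and Myl10 and tested in 3 libraries, by 0.61 ± 0.09 (adjusted p = 6.41e-05). It was 1 of the 8 members tested there, against 8.85% of all genes. In cluster 1 both genes were higher, by 0.57 ± 0.14 for Afp (edgeR adjusted p = 0.00507) and 0.70 ± 0.16 for Fam84b (adjusted p = 0.00337). These were 2 of the 7 members tested there, for which the share over all genes is not given here. Cluster 1 had 10 of 11 neutrophil markers at 2-fold, but its list mean of 1.74 missed the naming cut of 2. Fam84b was also higher in cluster 13, by 0.74 ± 0.14 (edgeR adjusted p = 0.000551), although in 3 of 4 libraries.

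All 82 UMIs of Stfa1 were in cluster 21, a late neutrophil group led by S100a9, S100a8 and Ngp. That group held 16, 8, 5 and 9 cells in control replicates 1 and 2 and knockout replicates 1 and 2, and 1, 2, 2 and 4 of them had any Stfa1. A single cell held 34 of the 49 UMIs in knockout replicate 2, and another held 18 of the 23 in knockout replicate 1. The group had little Kit, the gene of the cKit marker used in the sort, at 20.3 CPM, and the difference in Stfa1 rested on 9 cells of it. In addition, 47.0% of the 25-base words in the last 500 bases of Stfa1 transcripts also occur in its neighbour BC100530, which had 58 UMIs in knockout replicate 2 and 1, 0 and 0 in the other libraries. Reads could be split between these stefins.

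Whether the difference between genotypes was present inside a cell class was described in the 12 groups with at least 20 cells in every library. Both knockout libraries were above both controls in 12 of 12 groups for Afp, Fam84b and 4930519L02Rik, in 10 for 2410004B18Rik, in 9 for B930036N10Rik, in 8 for Slc22a3, in 4 for Slc45a3, in 3 for S100a4 and in 1 each for Pdzph1 and Stfa1. In no group were both knockout libraries below both controls for any member. Over all pairs of a tested gene and a group, 23.6% had both knockout libraries above. The members were chosen on the sum of these same cells, so the counts describe how widely each difference was spread. Some counted groups held few UMIs. In erythroid-like cells S100a4 had 3, 0, 3 and 3 UMIs and Fam84b 3, 0, 4 and 11. Slc45a3 had 2, 1, 1 and 4 in cluster 0 and 2, 1, 2 and 2 in neutrophil-like cells. Pdzph1 and Stfa1 had enough counts to fit in only 1 group each, so their counts do not show how widely a difference was spread.

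**Figure D3:**
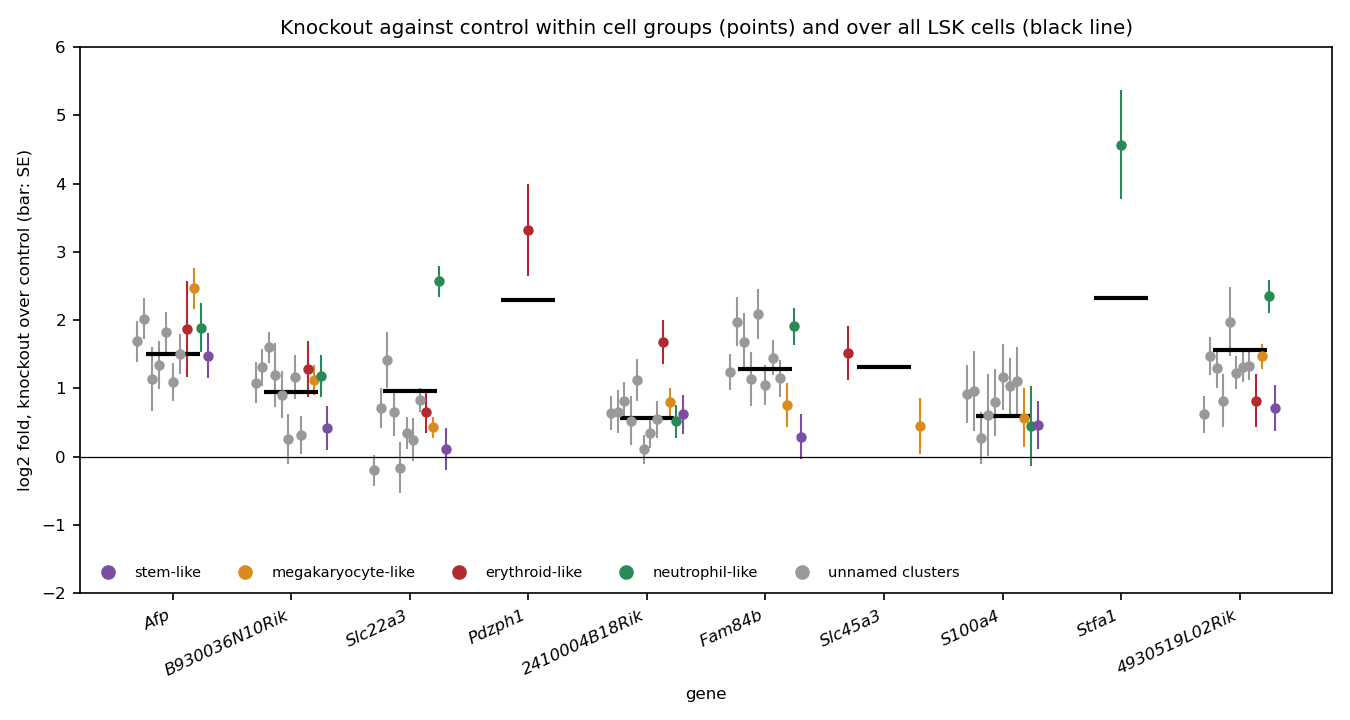
Log2 difference between knockout and control within each of the 12 cell groups that had at least 20 cells in every library, with 1 point per group and gene, bars for the SE, colours for the named classes, a black line for the difference over all LSK cells, and no point where the counts were too low to fit. The points of Afp, Fam84b and 4930519L02Rik lie above 0 in every fitted group, while those of Slc22a3 reach from -0.20 to 2.57.

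Afp was higher in the knockouts in every class that could be fitted, by 1.09 to 2.47 on the log2 scale, with a median of 1.69. In megakaryocyte-like cells it stood at 5.69 and 3.20 CPM in the controls and at 23.4 and 30.04 CPM in the knockouts (2.47 ± 0.30), and in stem-like cells at 8.83 and 14.4 CPM against 26.1 and 38.2 CPM (1.48 ± 0.33). Within every one of the 12 groups the knockout libraries did not overlap the controls. Fam84b had a median of 1.24. In neutrophil-like cells it stood at 5.11 and 5.89 CPM against 23.5 and 20.2 CPM (1.91 ± 0.27). In stem-like cells the values were 17.3 and 10.2 CPM against 18.6 and 17.4 CPM (0.29 ± 0.33), so that control replicate 1 lay just below both knockouts.

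4930519L02Rik ranged from 0.62 to 2.35 with a median of 1.31. In megakaryocyte-like cells it stood at 26.3 and 24.8 CPM in the controls and at 66.1 and 74.6 CPM in the knockouts (1.47 ± 0.18). In neutrophil-like cells it stood at 10.6 and 13.5 CPM against 54.3 and 74.4 CPM (2.35 ± 0.24), and in stem-like cells at 12.7 and 9.61 CPM against 15.9 and 22.1 CPM (0.71 ± 0.34). Whether the class differences in these values exceed their error was not tested.

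**Figure D4:**
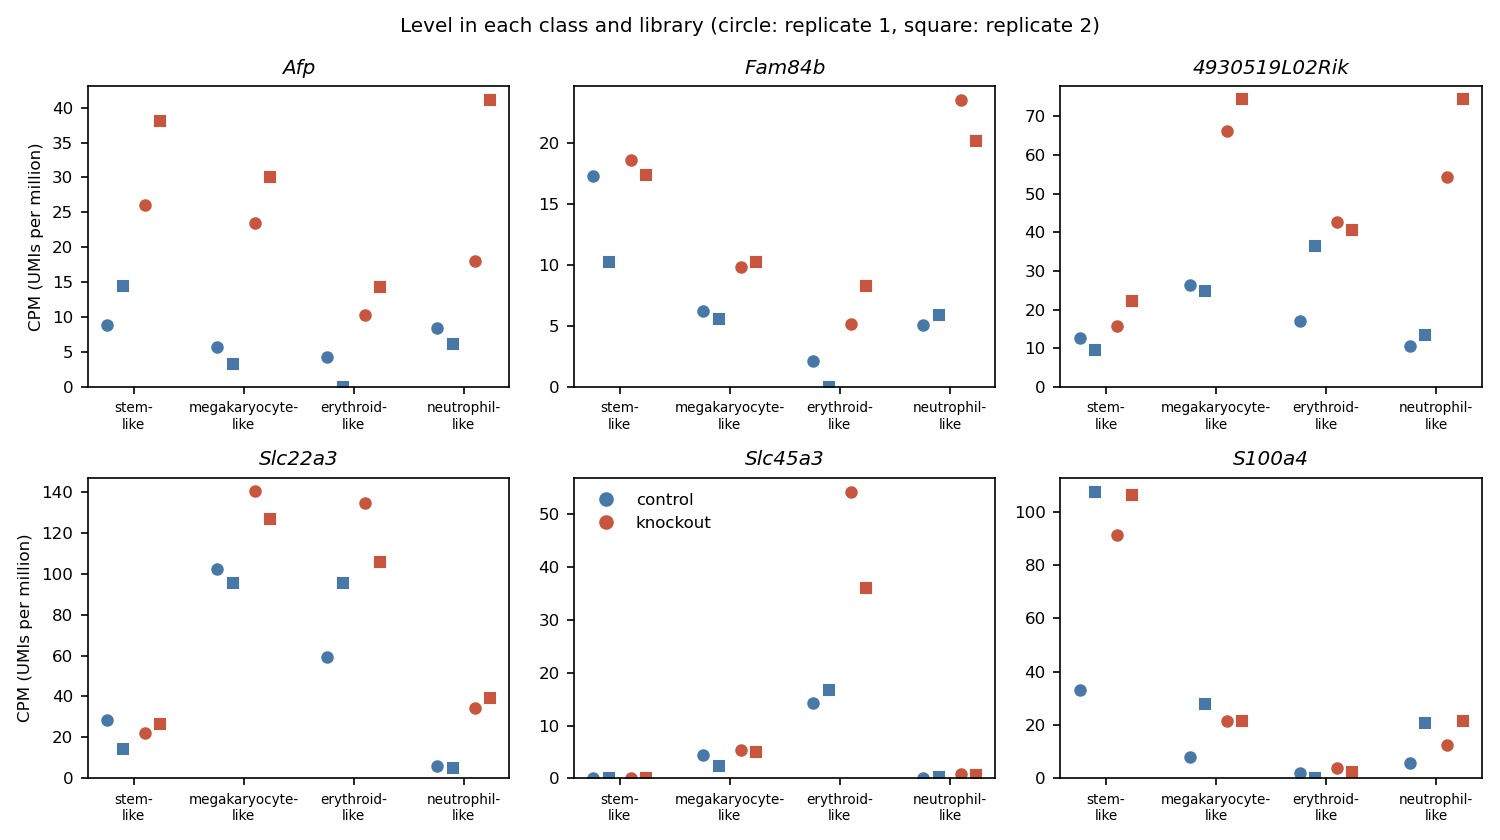
Level in CPM (linear axis from 0, a separate scale for each gene) of 6 genes in 4 named classes, with blue for control and red for knockout, circles for replicate 1 and squares for replicate 2. Both knockout points of Afp, Fam84b and 4930519L02Rik lie above both control points in all 4 classes, Slc22a3 separates most in neutrophil-like cells, and S100a4 of control replicate 2 lies near the knockouts.

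On the log2 scale Slc22a3 differed most between genotypes in neutrophil-like cells, and its median difference over the 12 groups was 0.54. In the classes where its level was highest, both knockouts were above both controls. In megakaryocyte-like cells the log2 difference was 0.43 ± 0.15 and in erythroid-like cells 0.65 ± 0.30. In stem-like cells the values were 28.4 and 14.4 CPM in the controls and 22.4 and 26.8 CPM in the knockouts, which overlapped. In clusters 4 and 7, where its mean over the libraries was lowest, the log2 differences were -0.16 ± 0.37 and 0.25 ± 0.31. In neutrophil-like cells the values were 6.22 and 4.91 CPM against 34.4 and 39.0 CPM (2.57 ± 0.23). That class was made of 3 clusters in different proportions, since 700 and 67 control cells but 13 and 9 knockout cells were in cluster 12. In cluster 14 alone, which held most of the knockout cells of the class, Slc22a3 stood at 9.70 and 10.6 CPM in the controls and at 38.7 and 40.4 CPM in the knockouts, and 4930519L02Rik at 14.8 and 23.0 CPM against 58.5 and 77.5 CPM. The difference between these classes was not tested.

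Of the members enriched in erythroid-like cells, Slc45a3 in erythroid-like cells stood at 14.3 and 16.8 CPM in the controls and at 54.3 and 36.1 CPM in the knockouts (1.52 ± 0.39). Pdzph1 in the same cells stood at 1.43 and 11.2 CPM against 54.3 and 25.5 CPM (3.32 ± 0.67), from 2, 4, 42 and 34 UMIs. A UMI of Pdzph1 was seen in 2 of 142 and 3 of 22 control cells of the class and in 18 of 30 and 19 of 55 knockout cells. These shares come from cells not thinned to equal depth. Over all classes the median cell held 6251 and 13175.5 UMIs in the controls and 17707 and 14398.5 in the knockouts. The part of depth in the contrast of these shares was not tested. Erythroid-like cells were 1.81% and 1.83% of the control cells and 1.89% and 1.61% of the knockout cells. In megakaryocyte-like cells Pdzph1 was level, at 1.35 and 1.60 CPM in the controls and 1.51 and 1.54 CPM in the knockouts, from 5, 2, 4 and 9 UMIs.

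2410004B18Rik had its largest difference in erythroid-like cells as well, at 24.3 and 22.4 CPM in the controls and 81.4 and 75.9 CPM in the knockouts (1.68 ± 0.32), with a median of 0.63 over the 12 groups. Among the 12 groups, B930036N10Rik was highest in the knockout cells of cluster 13, at 144.5 and 124.1 CPM against 40.8 and 47.0 CPM in the controls (1.60 ± 0.23). Whether the control and knockout cells of cluster 13 were of the same type was not tested. In stem-like cells B930036N10Rik stood at 16.1 and 27.6 CPM against 36.4 and 24.1 CPM, which overlapped. S100a4 had positive fitted differences in every group with enough counts, by 0.28 to 1.17, but only 3 groups did not overlap. Among these 3 were erythroid-like cells, with 3, 0, 3 and 3 UMIs and no fit.

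A sum over all LSK cells does not tell a change in the mix of cell classes from a change inside them, so the levels were also averaged with 1 fixed mix of the 12 groups, which covered 73.9% to 96.0% of the cells of a library. At the fixed mix, 9 of the 10 genes were again above both controls in both knockouts, against 28.4% of all genes, and S100a4 was again the exception. The mix reweights the same UMIs on which the genes were chosen, so this count also describes the choice. The neutrophil-like class entered the mix whole, so the shares of its clusters were not fixed. Over the same cells, the log2 ratio of Slc22a3 was 1.07 as counted and 0.70 at the fixed mix, that of Slc45a3 was 1.49 and 1.02, and that of Pdzph1 2.40 and 1.90. For Afp it was 1.53 and 1.64, for Fam84b 1.32 and 1.44, for 4930519L02Rik 1.65 and 1.47, for B930036N10Rik 1.04 and 1.01 and for 2410004B18Rik 0.65 and 0.61. For S100a4 it was 0.54 and 0.66, and for Stfa1, which rests on few cells, 2.08 and 3.70. The fixed mix lowered the ratio most in Pdzph1, Slc45a3 and Slc22a3.

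Relatives and neighbours of the 10 genes were examined as a comparison that the choice did not use. Of 72 such genes 37 were counted well enough to test, and 0 passed the edgeR adjusted p between genotypes, against 3.44% of all genes tested. Unadjusted, 10 had a p under 0.05, of which 3 were higher and 7 lower in the knockouts. DESeq2 called 2 of them, both lower. Slc22a4, which encodes a transporter related to that of Slc22a3, stood at 10.9 and 6.26 CPM in the controls and at 3.82 and 2.32 CPM in the knockouts (-1.55 ± 0.33, edgeR adjusted p = 0.0560). S100a1, a relative of S100a4, stood at 89.3 and 79.6 CPM against 45.2 and 56.4 CPM (-0.77 ± 0.16, adjusted p = 0.0543). The albumin gene Alb beside Afp had 0 UMIs in all 4 libraries.

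S100a6, the neighbour of S100a4, shared its low value in control replicate 1, at 30.4 and 73.7 CPM in the controls against 92.1 and 88.3 CPM in the knockouts (0.75 ± 0.38, adjusted p = 0.304). The calprotectin gene S100a8 stood at 121 and 855 CPM in the controls and at 51.7 and 62.3 CPM in the knockouts (-3.16 ± 0.80, adjusted p = 0.0800). Slc45a4, the only relative of Slc45a3 counted well enough to test, stood at 22.7 and 19.3 CPM against 25.9 and 27.4 CPM (0.30 ± 0.15, adjusted p = 0.291). Family members of S100a4, Slc22a3 and Slc45a3 had no common direction, and none passed the edgeR test.

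Gene positions on GRCm38 from the GENCODE vM21 annotation showed which counts could be shared. B930036N10Rik, at chr1:171500568-171504111 on the minus strand, overlaps exons of Alyref2 on the other strand and the small nuclear RNA gene Gm24871 on the same strand, which was not analysed here. Alyref2 stood at 6.30 and 9.60 CPM in the controls and 6.42 and 5.89 CPM in the knockouts (-0.40 ± 0.25, adjusted p = 0.408). Slc22a3, at chr17:12418960-12507704 on the minus strand, overlaps Plg on the other strand, which had at most 2 UMIs in any library. S100a4, at chr3:90603771-90606045 on the plus strand, shares exons with Gm42674 on the same strand, which had 0 UMIs. Slc45a3, at chr1:131962967-131982969 on the plus strand, lies within Gm29103 on the same strand, which was not analysed here. 4930519L02Rik, at chr3:143017660-143040752 on the plus strand, 2410004B18Rik, at chr3:145938014-145944829 on the plus strand, and Pdzph1, at chr17:58878808-58991375 on the minus strand, overlap no other annotated gene. Afp lies at chr5:90490737-90508907 on the plus strand, Fam84b at chr15:60818994-60853778 on the minus strand and Stfa1 at chr16:36276951-36285373 on the plus strand. Afp and Fam84b overlap transcripts of the other strand. Whether the counting kept to 1 strand is not given in the sources used here.

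Genes with the pattern most like each member were ranked by Pearson's r of log2 levels over 72 units, each being 1 cluster in 1 library, after centring within libraries. The units of a library share its depth, so the r values are a description. For Slc22a3 the closest were Vamp5 (r = 0.897), Tfr2 (0.840), which encodes a transferrin receptor, and Dach1 (0.832). For Slc45a3 they were Il1rl1 (0.898), the interleukin 33 receptor gene, Csrp3 (0.864) and Gm17590 (0.837). For 4930519L02Rik they were Nkg7 (0.778), Vamp8 (0.765) and G6pc3 (0.758), and for Afp they were Fam69b (0.816), Guca1a (0.800) and Slco3a1 (0.789). The other ranked members had lower values, at 0.682 for S100a4 with Dpysl2, 0.677 for Fam84b with Rcn1, 0.677 for B930036N10Rik with Fam136a and 0.648 for 2410004B18Rik with Polr2j. Pdzph1 and Stfa1 had too few UMIs to rank.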

How the data were processed

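The 4 libraries of LSK cells were prepared with the 3′ v3.1 kit. Per the labels and methods, the authors aligned reads to GRCm38 (mm10) with Cell Ranger 3.1, and the deposited matrices hold raw UMI counts per gene and barcode. How doublets were treated before deposit is not given in the sources used here. The members and the gene lists were chosen with earlier results of these data known.

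Barcodes with at least 200 genes and at most 10% mitochondrial UMIs passed (24973 of 25242), and copied barcodes were then left out. Scrublet called 9 doublets, which is too few to trust, and these were kept. Cells were scaled to 10000, centred within each library and clustered by the Leiden method (resolution 1, 15 neighbours, 20 components, 2000 variable genes) with Python 3.11.15, scanpy 1.11.5, scikit-learn 1.9.0 and igraph 0.11.9, which gave 22 clusters. A class name needed at least 3 markers at 2-fold over the median of the other clusters, a list mean of 2 or more on the log2 scale, and more own markers among the 10 leading genes than of all other lists. This rule was chosen after its output was seen, and 11 clusters were named. Lists of monocyte and dendritic, lymphoid multipotent, plasma cell, and macrophage markers named no cluster. The lists of mature erythroid and of endothelial and stromal markers were not used for naming.

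UMIs summed per library were fitted with R 4.3.3 and edgeR 4.0.16 (low-count filter, TMM scaling, quasi-likelihood test, Benjamini-Hochberg adjustment at 0.05), and DESeq2 1.42.0 was an alternative. CPM are UMIs per 1000000 UMIs of the same cells. The scripts were tested on simulated data. All 10 members are named. Their 41 family relatives and 40 neighbours (the 2 nearest genes on either side) are given as counts, with direct paralogs and genes past the adjusted p named, and the text adds a few chosen after their values were seen. The correlation of deviations between libraries with the same replicate number was -0.175, and between those with different numbers 0.175. With 2 libraries per genotype these are 1 value with its sign changed, which cannot decide whether the numbers pair the libraries. Alternatives were a minimum of 500 genes, all barcodes, no low-count filter, another resolution or clustering genes, the control mix, each library left out and a replicate block. Clustering without centring, leaving out B cell-like, T and NK cell-like and late neutrophil cells, and a crossed block were added after seeing the data.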

Additional observations from a re-analysis of the deposited data

How the results depend on the processing

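The count of genes called between genotypes moved from 474 to 886 with DESeq2 and to 1933 with no filter on low counts. With 1 library left out it ranged from 372 to 2890, at 2890 without control replicate 1 and 1932 without control replicate 2. With the replicate number as a block it was 1257, and with the crossed block, chosen after seeing the data, 1735. Nothing in the labels pairs the libraries. Of the relatives and neighbours, 0 were called in the main analysis, 1 with all barcodes, 2 with DESeq2, 7 with no filter, 5 with the replicate block, 6 with the crossed block, and 2 to 12 with 1 library left out.

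The differences of S100a4 reversed without control replicate 1 and were largest without control replicate 2. They ranged from -0.16 to 2.03 over all cells, from -0.003 to 1.92 at the fixed mix, from -0.44 to 1.46 in megakaryocyte-like cells, from -0.41 to 1.57 in neutrophil-like cells (-0.04 without knockout replicate 2) and from -0.24 to 1.58 in stem-like cells. In stem-like cells B930036N10Rik ranged from -0.04 without control replicate 1 to 0.86 without control replicate 2, and Slc22a3 from -0.20 without control replicate 2 (-0.02 without knockout replicate 2) to 0.66 without control replicate 1. The cause was not tested. In the clustering without centring, chosen after seeing the data, 7 pairs of a member and a named class were called higher and 10 lower, against 12 and 19. The shares over all genes are not given here, so these counts are not read as a result about the members. Only erythroid-like and neutrophil-like cells had at least 20 cells in every library without centring. In the main clustering megakaryocyte-like and stem-like cells did as well. Without centring, 15 of 20 clusters had over 90% of their cells from 2 libraries, against 5 of 22 in the main clustering. The call of Slc22a3 as lower in neutrophil-like cells (-1.28) was lost without control replicate 1 (-0.83) and at resolution 1.5 (-0.70). Members above both controls numbered 9 or 10 of 10 over all cells and at the fixed mix, except 8 over all cells when B cell-like, T and NK cell-like and late neutrophil cells were left out. In the clustering without centring the fixed mix rested on 2 groups, which covered as little as 3.5% of the cells of a library. Leaving out those 3 classes gave log2 differences from 0.54 for S100a4 to 2.34 for Pdzph1, and Stfa1 could not be fitted. With 2 libraries a genotype, differences in sparse genes such as Stfa1 and Pdzph1 rest on few UMIs.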
